A study of Oryza sativa with 6 samples.

Results

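The interior arms of rice chromosome 3 (Chr3) were described by the IP-G4s that the deposited lists call specific to 1 of 2 cations. IP-G4s are regions of genomic DNA that the BG4 antibody pulled down after folding into G-quadruplexes (G4s). Regions were taken from both lists by position alone, with the midpoint from 1 to 17.9 Mb (short arm, 16.9 Mb) or from 20.9 to 35.4 Mb (long arm, 14.5 Mb), so that the centromere and both chromosome ends were left out. This rule gave 1980 of the 25509 specific IP-G4s of the genome, of which 956 were in the long arm and 1024 in the short arm. The rest of the genome held 23529. The arms are often called gene-rich, but gene content was not checked here, and they are named by chromosome and arm only.

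The DNA came from seedlings of wild-type japonica rice, 2 weeks old. It was cross-linked, fragmented, denatured and then folded in the crowding agent PEG200 with KCl (K+PEG) or with NaCl at the same concentration (Na+PEG), and 2 biological replicates of each were sequenced beside 2 input libraries without antibody. The antibody and washing buffers contained KCl under both conditions, so the cation differed at the folding step only. A K+-specific IP-G4 is a segment shared by the peaks of both K+PEG replicates that no segment shared by both Na+PEG replicates overlaps, and a Na+-specific IP-G4 is the reverse. Rebuilding this definition from the library lists on the beginning of Chr1 returned the deposited positions of all 205 K+-specific regions there and of all 121 Na+-specific regions. The 4 library lists used here hold no peak on Chr3, so no value of a single library, no enrichment and no sequencing depth stands behind a region of Chr3, and the spread between replicates could not be measured there. The tests below rest on the spread between stretches of the genome. Poisson and Wilson intervals treat regions as independent and cover counting error only. SDs and standard errors of length are across regions.

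A G4 forms where guanine-rich DNA folds back on itself and 4 guanines pair in a flat ring, with such rings stacked on each other. A monovalent cation sits in the channel through the stack, and K+ generally stabilizes it better than Na+. A K+-specific region is thus one that was recovered reproducibly after folding with K+ and not reproducibly with Na+, where a peak in a single library may still lie. The lists hold positions without bases, and no sequence of these regions was analysed here.

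Specific IP-G4s of both kinds were spread over the whole length of both arms. The interior arms held 1268 K+-specific IP-G4s, or 40.4 per Mb (95% exact Poisson interval 38.2 to 42.7), and the rest of the genome held 45.2 per Mb (44.5 to 46.0). They held 712 Na+-specific IP-G4s, or 22.7 per Mb (21.0 to 24.4), against 23.6 per Mb (23.1 to 24.1) in the rest of the genome. These intervals, and the exact Poisson intervals given below for arms and their parts, cover counting error only. Between bins of 1 Mb, the variance was 2.97 times that of counting error for K+-specific and 1.77 times for Na+-specific IP-G4s. When the genome was divided into bins of 1 Mb and the spread between bins was taken into account, the K+-specific density was 0.893 times that of the rest of the genome (95% interval 0.809 to 0.986; quasi-Poisson F test, n = 380 bins, p = 0.0247). This did not pass 0.05 after Benjamini-Hochberg adjustment over the 12 contrasts tested (adjusted p = 0.148, n = 380 bins). The Na+-specific density was 0.960 times that of the rest (0.866 to 1.06; n = 380 bins, adjusted p = 0.566). Against the interior arms of the other 11 chromosomes alone, which held 43.9 K+-specific and 23.0 Na+-specific IP-G4s per Mb, the density contrasts did not pass 0.05 after adjustment either. Together, K+-specific regions covered 1.16% of the interior arms of Chr3 and 1.35% of the rest of the genome, and Na+-specific ones covered 0.540% and 0.576%.

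Both arms of Chr3 lay within the range of the other arms. The same cut around the centromeres and ends gave 23 interior arms in all. The K+-specific density was 41.2 per Mb in the long arm and 39.6 per Mb in the short arm, against 38.7 (Chr12, long arm) to 55.7 per Mb (Chr4, short arm) in the other 21 arms. The short arm of Chr3 ranked as the second lowest, and its interval (36.7 to 42.8) overlapped that of the long arm (38.0 to 44.7). The Na+-specific density was 24.7 per Mb in the long arm and 20.9 per Mb in the short arm, with the other arms between 19.4 (Chr2, short arm) and 29.7 per Mb (Chr4, short arm). Between the arms of Chr3, the ratio of long to short was 1.04 for K+-specific (95% interval 0.860 to 1.26; quasi-Poisson F test, n = 380 bins, adjusted p = 0.747) and 1.18 for Na+-specific IP-G4s (0.969 to 1.43; adjusted p = 0.352). Neither ratio passed the threshold, and the intervals allow differences of up to 1.26 and 1.43 times.

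**Figure D1:**
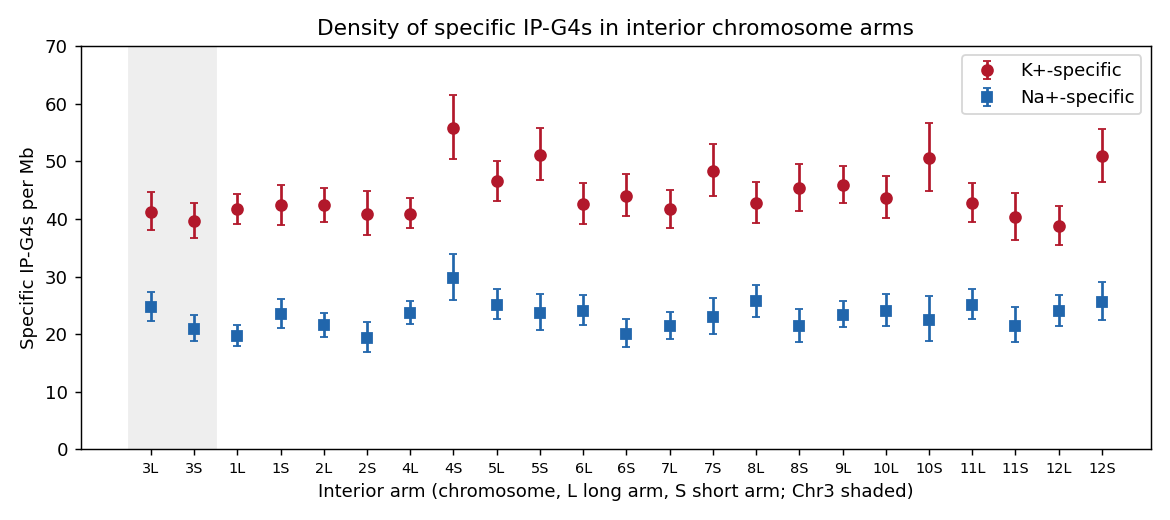
Density of K+-specific (circles) and Na+-specific (squares) IP-G4s, in regions per Mb, in the 23 interior chromosome arms, with 95% exact Poisson intervals (counting error only). For K+-specific IP-G4s, both arms of Chr3 (shaded, 41.2 and 39.6 per Mb) sit in the lower part of the range of the other arms, which goes from 38.7 to 55.7 per Mb, whereas for Na+-specific ones the long arm (24.7 per Mb) lies in the upper part.

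K+-specific IP-G4s became sparser with distance from the centromere in both arms. Each arm was divided into an inner, a middle and an outer part of equal length, the inner one next to the centromere. In the long arm, the inner part held 47.4 K+-specific IP-G4s per Mb (95% exact Poisson interval 41.4 to 53.9), the middle part 39.1 (33.7 to 45.1) and the outer part 37.2 (32.0 to 43.1). In the short arm the 3 values, in the same order, were 45.6 (40.2 to 51.6), 40.1 (35.1 to 45.7) and 33.2 per Mb (28.6 to 38.3). The outer part of the short arm was thus the sparsest of the 6. The fall was not even. In the long arm, all bins within the inner 6 Mb had 43 to 59 K+-specific IP-G4s per Mb and those beyond had 21 to 44. In the short arm the ranges overlapped widely, with 31 to 66 per Mb in the inner 6 bins and 31 to 46 beyond. Na+-specific IP-G4s were densest in the inner part of the long arm, at 29.0 per Mb (24.4 to 34.2), and had 22.8 and 22.3 per Mb in its middle and outer parts. In the short arm they were nearly level, at 21.3, 21.1 and 20.4 per Mb.

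No difference between Chr3 and the other arms was detected in this fall. Slopes over bins of 1 Mb, with a separate level for each arm, were fitted after these profiles had been seen. Over 10 Mb away from the centromere, the K+-specific density of Chr3 changed by a factor of 0.749 (95% interval 0.630 to 0.889; quasi-Poisson F test, n = 326 bins, adjusted p = 0.00319 over 9 slopes), and that of the other interior arms by 0.789 (0.746 to 0.835). The ratio of these factors was 0.948 (0.791 to 1.14; n = 326 bins, adjusted p = 0.619). The long arm alone gave the same factor as both arms, 0.749 (0.568 to 0.987), but did not pass the threshold (n = 309 bins, adjusted p = 0.120). The short arm alone gave 0.749 (0.600 to 0.934) and passed (quasi-Poisson F test, n = 311 bins, adjusted p = 0.0320). Of these bins, 15 and 17 were on Chr3, and the others were in the other interior arms. For Na+-specific IP-G4s the factor was 0.860 (0.721 to 1.03; n = 326 bins, adjusted p = 0.217) on Chr3 and 0.776 (0.732 to 0.824) in the other arms, and the ratio of these, 1.11, did not differ detectably from 1 (0.919 to 1.34; adjusted p = 0.360). As a description across bins, Spearman's rho of density with distance was -0.48 for K+-specific and -0.29 for Na+-specific IP-G4s in the 15 bins of the long arm, and -0.61 and -0.27 in the 17 bins of the short arm. In the other arms, rho for K+-specific IP-G4s ranged from -0.82 to -0.08 and was below 0 in 21 of 21. The bin models treat neighbouring bins as independent, which was not tested, and intervals and p-values may be too small where they are not.

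**Figure D2:**
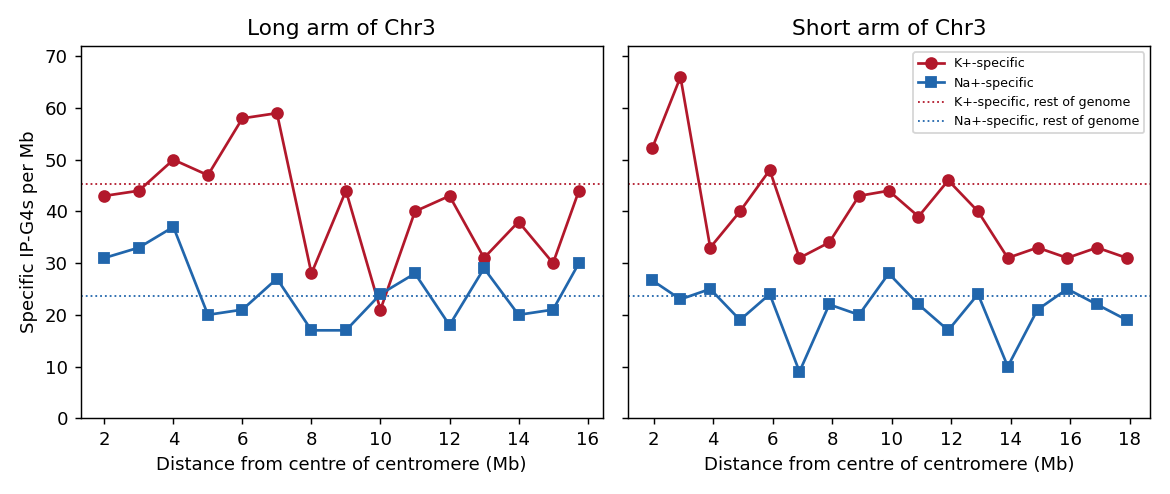
K+-specific (circles) and Na+-specific (squares) IP-G4s per Mb in successive bins along the long arm (left) and the short arm (right) of Chr3, against the distance of the bin from the centre of the centromere in Mb. Dotted lines give the density of the rest of the genome (45.2 and 23.6 per Mb). K+-specific values tend to fall with distance in both arms, and Na+-specific values do so less evenly. The outermost bin of the long arm, of 0.5 Mb, rises again to 44 and 30 per Mb.

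Single bins varied widely around these profiles, which the plot of density along the arms shows. The K+-specific density of the 32 bins had a lowest value of 21.0, a median of 40.0 and a highest value of 66.0 per Mb, and the Na+-specific density had 9.0, 22.0 and 37.0 per Mb. The largest numbers of specific IP-G4s were found at 16 to 17 Mb of the short arm (66 K+-specific and 23 Na+-specific), followed by 22.9 to 23.9 Mb (50 and 37) and 25.9 to 26.9 Mb (59 and 27) of the long arm. Per Mb, the fewest were in the short arm, at 12 to 13 Mb (31 and 9) and 5 to 6 Mb (31 and 10). Next came 26.9 to 27.9 Mb of the long arm (28 and 17), with the same total at 28.9 to 29.9 Mb (21 and 24). The bin at 26.9 to 27.9 Mb lies directly beside one of the 3 densest bins. Bins with many K+-specific IP-G4s did not strongly tend to have many Na+-specific ones, with a Spearman's rho of 0.29 across the 32 bins, given as a description.

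K+-specific IP-G4s outnumbered Na+-specific ones in 31 of 32 bins. In the 336 bins of 1 Mb of the rest of the genome, their share ranged from 42.9% to 81.0%, with a median of 65.9%. K+-specific IP-G4s made up 64.0% (95% Wilson interval 61.9 to 66.1) of the specific IP-G4s of the interior arms and 65.7% (65.1 to 66.3) of those in the rest of the genome, with an odds ratio of 0.930 (95% interval 0.835 to 1.04; quasi-binomial F test, adjusted p = 0.372). The share was 62.6% (59.4 to 65.6) in the long arm and 65.4% (62.5 to 68.3) in the short arm, with an odds ratio of 0.883 (0.718 to 1.09; n = 380 bins, adjusted p = 0.403). Among the 23 arms, the long arm of Chr3 had the third lowest share and the short arm stood in the middle, at rank 12 from the lowest. The other arms ranged from 61.7% (Chr12, long arm) to 69.2% (Chr10, short arm).

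Within the arms, the share of K+-specific IP-G4s had a lowest value of 46.7%, a median of 62.4% and a highest value of 77.5% across bins. The highest shares were those of the sparse bins at 12 to 13 Mb (77.5%, 95% Wilson interval 62.5 to 87.7) and 5 to 6 Mb (75.6%, 60.7 to 86.2) of the short arm and of its densest bin at 16 to 17 Mb (74.2%, 64.2 to 82.1). In both sparse bins the number of Na+-specific IP-G4s was low, at 9 and 10. The lowest shares were at 28.9 to 29.9 Mb of the long arm (46.7%, 32.9 to 60.9), the bin where Na+-specific regions were in excess (21 K+-specific against 24 Na+-specific), at 31.9 to 32.9 Mb of the long arm (51.7%, 39.3 to 63.8) and at 3 to 4 Mb of the short arm (55.4%, 42.4 to 67.6). The interval of 3 of the 32 bins left out the share of both arms together, 64.0%. At a level of 95%, a few of 32 intervals can leave out a common share, and single bins were not tested. From the inner to the outer part, the share was 62.1%, 63.2% and 62.5% in the long arm and 68.2%, 65.5% and 61.9% in the short arm. The slope of the share with distance did not pass the threshold on Chr3 (odds factor 0.872 over 10 Mb, 95% interval 0.704 to 1.08; quasi-binomial F test, adjusted p = 0.313).

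**Figure D3:**
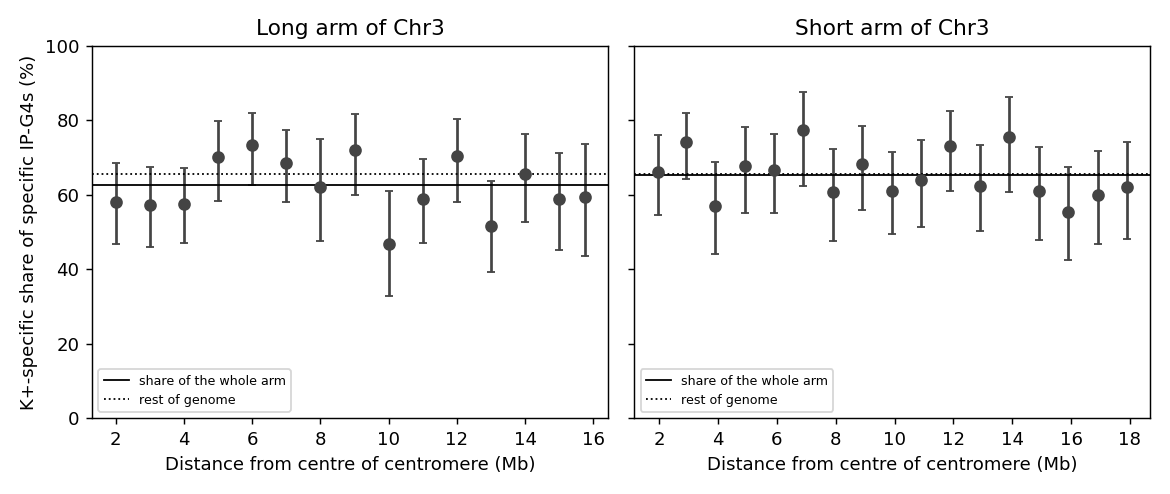
Share of K+-specific among all specific IP-G4s, in percent, in successive bins of the long arm (left) and the short arm (right) of Chr3, against the distance from the centre of the centromere in Mb. Bars are 95% Wilson intervals, the solid line is the share of the arm (62.6% and 65.4%) and the dotted line that of the rest of the genome (65.7%). The lowest bin, at 46.7%, is in the long arm and the highest, at 77.5%, in the short arm.

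The K+-specific IP-G4s of the interior arms were slightly shorter than those elsewhere, by a difference that did not pass the threshold with all regions included. On average they were 286 bp long (SD 130.2 across regions, n = 1268), against 299 bp (SD 149, n = 15457) in the rest of the genome. The median was 251 bp in the interior arms and 259 bp in the rest, the lower quartile 209 and 210 bp, and the upper quartile 329 and 348 bp. The lower quartiles nearly coincided and the upper ones differed by more. In bins of 1 Mb, the difference in mean length was -12.7 bp (95% interval -22.0 to -3.37; F test of a weighted linear model, n = 380 bins, p = 0.00778), which did not pass 0.05 after adjustment (adjusted p = 0.0934). When regions shorter than 200 bp were left out, the difference was -17.7 bp and passed (-27.6 to -7.73; n = 379 bins, adjusted p = 0.00635), whereas the adjusted p over all alternatives ranged from 0.00635 to 0.363. Whether the difference passed thus depended on which regions were counted.

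Long K+-specific regions made up a smaller share of the K+-specific IP-G4s than in the rest of the genome, a difference without a test. In the interior arms, 14.9% (95% Wilson interval 13.1 to 16.97) of the K+-specific regions reached 400 bp and 2.84% reached 600 bp, and in the rest of the genome 17.7% (17.1 to 18.3) and 4.77% did. The share of at least 400 bp was 16.2% (13.5 to 19.4) in the long arm and 13.7% (11.3 to 16.5) in the short arm, the lowest of the 23 arms. The mean length was 290.5 bp in the long arm and 282 bp in the short arm, which was also the lowest of all arms, next to 286 bp in the long arm of Chr1. These shares and ranks were not tested, and the long and short arms did not differ detectably in mean length (8.20 bp, 95% interval -9.78 to 26.2; weighted linear model, n = 380 bins, adjusted p = 0.556).

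Na+-specific regions of the interior arms were 238 bp long on average (SD 89.8 across regions, n = 712), against 244 bp (SD 94.7, n = 8072) in the rest of the genome, with medians of 223.5 and 227 bp. The difference was -5.81 bp (95% interval -13.1 to 1.47; weighted linear model, n = 380 bins, adjusted p = 0.352). Both arms had a mean of 238 bp. At least 400 bp was reached by 33 of the 712, or 4.63% (3.32 to 6.44), and by 6.10% (5.59 to 6.64) in the rest of the genome.

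The mean length of K+-specific regions exceeded that of Na+-specific regions by 48.2 bp in the interior arms and by 55.1 bp in the rest of the genome, and these differences did not differ detectably in the bin model (-8.35 bp, 95% interval -19.8 to 3.10; n = 380 bins, adjusted p = 0.366). In the 336 bins of 1 Mb of the rest of the genome, the bin means had medians of 295.6 bp (K+-specific) and 242.5 bp (Na+-specific). On Chr3, the K+-specific mean exceeded the Na+-specific one in 30 of 32 bins. The exceptions, named after their values were seen, were 2 to 3 Mb of the short arm (252 bp for K+-specific and 284 bp for Na+-specific IP-G4s) and the last, shorter bin of the long arm at 34.9 to 35.4 Mb (239.7 and 240.8 bp). Along the arms, the K+-specific mean was 296 bp, 299 bp and 274 bp from the inner to the outer part of the long arm, and 297 bp, 274 bp and 272 bp in the short arm. In the same order, the share of K+-specific regions of at least 400 bp was 20.1%, 16.4% and 11.1% in the long arm and 16.3%, 14.2% and 9.63% in the short arm, so that it was lower in each successive part, whereas the mean in the long arm was not. Long K+-specific regions thus lay more often near the centromere, a trend that was not tested. It was not particular to Chr3, since this share was also lower in the outer than in the inner part of most other arms. The reverse held in the short arms of Chr4, Chr7, Chr10 and Chr12 and in the long arm of Chr6.

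**Figure D4:**
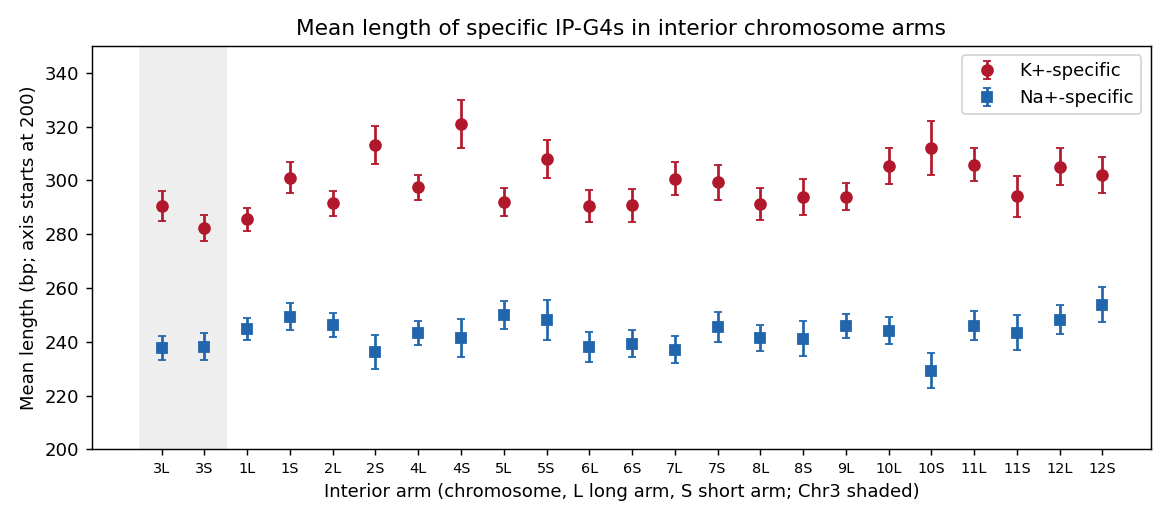
Mean length of K+-specific (circles) and Na+-specific (squares) IP-G4s in bp in the 23 interior chromosome arms, with the standard error across regions, on an axis that starts at 200 bp. The short arm of Chr3 has the lowest K+-specific mean of all arms (282 bp), and its long arm (290.5 bp) is also in the lower part.

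Because a specific IP-G4 is the shared part of peaks from 2 libraries, it can be shorter than any called peak. Of the K+-specific regions in the interior arms, 15.1% (95% Wilson interval 13.2 to 17.1) were shorter than 200 bp, and of the Na+-specific ones 26.5% (23.4 to 29.9). In the rest of the genome these shares were 15.9% and 24.9%. Exactly 200 bp was the length of 46 K+-specific and 39 Na+-specific regions of the interior arms, and 13 and 11 were shorter than 50 bp. The shortest K+-specific region had 1 bp and the shortest Na+-specific one 5 bp.

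The longest regions lay scattered over both arms. In the long arm, the 3 longest K+-specific IP-G4s were at Chr3:25668803-25670167 (1365 bp), Chr3:28211226-28212296 (1071 bp) and Chr3:22914968-22915847 (880 bp) of MSU v7.0. The first of these ranked as the fourth longest among all 16725 K+-specific regions, and its nearest Na+-specific neighbour was 64.0 kb away. The third had a Na+-specific neighbour at 557 bp and lay in one of the bins with the most specific IP-G4s. In the short arm, the 3 longest K+-specific IP-G4s were at Chr3:12724270-12725245 (976 bp), Chr3:13502694-13503577 (884 bp) and Chr3:8102453-8103277 (825 bp). The first of these was in the bin with the fewest specific IP-G4s per Mb of both arms.

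Among Na+-specific IP-G4s, the longest of the long arm were at Chr3:21550333-21551043 (711 bp), Chr3:25234187-25234791 (605 bp) and Chr3:25083046-25083633 (588 bp), the last 2 within the same bin. Those of the short arm were at Chr3:8360664-8361547 (884 bp), Chr3:2173295-2174001 (707 bp) and Chr3:16900185-16900793 (609 bp). The first of these ranked as the fourth longest among all 8784 Na+-specific regions. The third had another Na+-specific region at a distance of 123 bp, whereas its nearest K+-specific neighbour was 17.1 kb away.

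On the scale of single regions, counts of specific IP-G4s per window varied less, relative to their mean, than in most other arms. The median distance between neighbouring midpoints was 9.90 kb in the long arm and 11.03 kb in the short arm, with 6.50 to 11.1 kb in the other arms. None of the 145 windows of 100 kb in the long arm and none of the 169 in the short arm was empty, as in most of the other arms, which had 0 to 3 empty windows with a median of 0. The variance of the counts per window was 1.16 times their mean in the long arm and 1.25 times in the short arm. The other 21 arms had 1.15 to 2.37 times with a median of 1.56, so both arms lay near the lower end. The variance exceeded the mean in both arms, so the counts were not more even than random placement would give. The densest window held 14 specific IP-G4s in the long arm and 16 in the short arm, and that of each other arm held 15 to 25. In the short arm this was 13.4 to 13.5 Mb, with 11 K+-specific and 5 Na+-specific regions. The next window, at 13.5 to 13.6 Mb, held 12 and 2 and contained the second longest K+-specific region of the arm. These windows were named after their values were seen. The longest stretch without a specific IP-G4 was 99.4 kb in the long arm (Chr3:29381264-29480636) and 121 kb in the short arm (Chr3:5150156-5271550). The stretch of the long arm lay in the bin with the lowest K+-specific share, and that of the short arm in one of the sparsest bins.

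A minority of specific IP-G4s had another within 1 kb, and the share to be had from density alone was not worked out. A K+-specific neighbour within 1 kb was found for 15.9% (95% Wilson interval 14.0 to 18.0) of the K+-specific regions in the interior arms and for 18.2% (17.5 to 18.9) in the other interior arms. For Na+-specific regions, a neighbour of their own type was found in 7.72% (5.98 to 9.92) and 9.66% (8.97 to 10.4). By arm, it was 5.03% (3.20 to 7.81) in the long arm and 10.5% (7.68 to 14.1) in the short arm of Chr3, although the long arm held more Na+-specific regions per Mb. Neighbours of the other type were found for 7.26% of K+-specific regions on Chr3 and for 7.28% in the other interior arms, and for 12.6% and 13.5% of Na+-specific regions. These shares were not tested. A close pair of the same type counted both of its regions, so regions were not independent and the intervals of those shares are too narrow.

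The boundaries of the arms divided no region. At 1 Mb, the first region inside was K+-specific (406 bp) at a distance of 2.52 kb, and the last outside was K+-specific (284 bp) at 10.5 kb. At 17.9 Mb, a K+-specific region of 286 bp lay 21.3 kb inside and a Na+-specific one of 289 bp 23.9 kb outside. At 20.9 Mb, a K+-specific region of 410 bp lay 1.04 kb inside and one of 337 bp 46.1 kb outside. At 35.4 Mb, a K+-specific region of 201 bp lay 14.8 kb inside and one of 193 bp 9.96 kb outside.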

How the data were processed

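BG4-DNA-IP-seq was performed on rice seedling DNA under K+PEG and Na+PEG, with 2 replicates each and 2 inputs. Per the paper's methods, the authors used Trim Galore for read trimming, BWA for alignment to MSU v7.0, SAMtools against PCR duplicates, MACS for peaks of single libraries over input, and bedtools for the intersection of replicates. The deposited specific lists give chromosome, start and end only. The members, lists and tests were chosen with earlier results of these data known.

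Regions were counted by midpoint in 380 bins of up to 1 Mb, of which 32 were in the Chr3 interior (15 in the long and 17 in the short arm). Densities were fitted by quasi-Poisson, shares by quasi-binomial and mean lengths by weighted linear models (F tests, two-sided; Python 3.11.15, statsmodels 0.14.6, scipy 1.17.1), with Benjamini-Hochberg adjustment over 12 contrasts. Alternatives that held fewer contrasts were adjusted over 6 or 3, so adjusted p-values are not strictly alike across alternatives. The models were also run on simulated data whose bins were independent, which cannot show the effect of dependence between neighbouring bins. Chromosome lengths were taken as the largest end in the lists. Approximate centromere positions of the other chromosomes are general knowledge of the assembly and not from the files. Other arms were cut 1.5 Mb from the centromere and 1 Mb from the ends, and the short arm of Chr9 was too small to use. Named regions were the 3 longest of each type and arm, the 3 bins with most, fewest, highest and lowest values (shares from 20 regions), the longest gaps and the regions at the boundaries. Alternatives were other bin sizes, whole arms as units, other interior arms as comparison, boundaries moved by 0.5 Mb, either arm left out, regions of at least 200 bp, neighbours merged and medians. Gene overlap, gene density, GC content and motifs were not analysed here, since the gene table at hand belongs to another assembly than MSU v7.0. Fold enrichment and p-values in the library lists were not used.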

Additional observations from a re-analysis of the deposited data

How the results depend on the processing

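Of 81 alternative values for the 12 contrasts, 79 kept their direction and their side of the threshold. Without the short arm, the Na+-specific density of the remaining long arm was 1.05 times that of the rest of the genome (n = 363 bins, adjusted p = 0.607, within 0.191 to 0.827 over all alternatives), which turned the direction of a ratio that did not pass the threshold. With regions of at least 200 bp, the difference in K+-specific length passed, at -17.7 bp. The ratio of the K+-specific density stayed below 1 in all 9 alternatives, from 0.876 to 0.921, with adjusted p from 0.0824 to 0.363. Of 30 alternative values for the 9 slopes, chosen after seeing the data, 29 kept their direction and call, and the K+-specific slope of the long arm alone had an adjusted p of 0.120. The causes were not tested. No paired analysis was possible because the lists of specific IP-G4s hold no value of a single library, and for the same reason no library was left out. The number of regions limits single bins most, where the Wilson interval of the K+-specific share spans 17.9 to 30.2 percentage points.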

Other observations

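The parts of Chr3 that the interior arms leave out were counted in the same way, without a test. The 3 Mb around the centromere held 52.0 K+-specific (95% exact Poisson interval 44.2 to 60.8) and 33.0 Na+-specific IP-G4s per Mb (26.8 to 40.2), both above the densities of the interior arms (40.4 and 22.7 per Mb). K+-specific regions were 61.2% of them (95% Wilson interval 55.1 to 66.9). The end of the long arm held 36.8 K+-specific and 20.9 Na+-specific IP-G4s per Mb, and that of the short arm held 39 and 20 in its 1 Mb. The K+-specific regions at the end of the long arm had a mean length of 247 bp (n = 37) and those at the end of the short arm 327 bp (n = 39), whereas Na+-specific ones had 242 bp (n = 21) and 217 bp (n = 20).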
